A study of Mus musculus with 54 samples.

Results

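The 35 genes described here carry fatty acids into oxidation and ketone body formation in the mouse small intestine. They were chosen by name as a functional module: 2 transcription factors, 3 genes of fatty acid activation and storage, 2 acyl-CoA thioesterases, 4 genes of the carnitine shuttle, 7 acyl-CoA dehydrogenases and electron transfer genes, 8 genes of the later mitochondrial steps, 5 peroxisomal and omega oxidation genes, 1 ketone body gene, and 3 genes for fuel choice and for secreted or surface proteins. All 35 were found, each once, among the 48440 entries of the sorted-cell RNA table and among the 27998 genes of the single-cell matrices. No threshold on measured values entered the rule, but the members were chosen with earlier results of these data known.

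Fatty acids are activated to acyl-CoA, passed into mitochondria as carnitine esters and shortened there by repeated cycles of dehydrogenation, hydration, a further dehydrogenation and thiolysis. Peroxisomes shorten very long chains, and microsomal CYP4A enzymes hydroxylate the far end of the chain. PPARα, a nuclear receptor that binds fatty acids, drives many of these genes in liver and gut, and the acetyl-CoA produced feeds the citric acid cycle or is turned into ketone bodies, which crypt cells make as well.

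The study concerns miR-375, a microRNA of enteroendocrine and other intestinal epithelial cells. RNA from sorted crypt cells was measured in 16 libraries, 4 each from mice on chow, mice on a high fat diet, germ-free mice and conventionalized mice. All 16 came from C57BL/6J mice carrying a Sox9-EGFP reporter and from the cell fraction labelled Sox9-EGFP Low, which is known to be enriched for crypt base stem cells. For these mice the sources used here leave unstated the age, the composition and duration of the diets, and the way conventionalized mice were colonized. Single intestinal cells came from 12-month-old C57BL6/2J mice, 2 wild-type samples and 2 samples of the miR-375 knockout labelled 375-KO, each genotype once in set 1 and once in set 2. The sources used here do not say how many mice a sample holds or how miR-375 was deleted. Single-cell counts do not measure the microRNA itself, so the genotypes rest on the labels.

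The 16 sorted-cell libraries held 10688863 to 19124357 normalized counts in all. Sox9 read 2146 to 6705 normalized counts in these libraries. The summed level of 10 stem cell markers ranged from 13785 to 151990, that of 8 Paneth markers from 45782 to 866030, and that of 8 T lymphocyte markers from 31.1 to 468. The sum of 12 enteroendocrine markers ran from 95704 to 1191700, above the stem sum in every library but conventionalized replicate 2. The sorted fraction therefore held RNA of secretory cells as well. In the single cells, 1185 and 3156 wild-type cells and 1229 and 3149 knockout cells were kept in sets 1 and 2, with medians of 16312, 5695, 15877 and 13524 UMIs (unique molecular identifiers, 1 per captured RNA molecule). Of all barcodes in set 2 the median mitochondrial share was 40.9% in wild type and 37.9% in knockout, against 5.90% and 5.62% in set 1. The wild-type and knockout libraries shared 1 barcode sequence in set 1 and 12 in set 2, and no other pair of libraries shared any. T lymphocyte-like cells made up 42.6% and 25.4% of the kept wild-type and knockout cells of set 2.

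The animal numbers place chow replicates 1 and 2 and high fat diet replicates 1 and 2 in a series BC18x, and replicates 3 and 4 of both diets in a series BC24x, so series was a term of the fit. The labels call animal BC241 chow replicate 3 and BC242 high fat diet replicate 3, while the small RNA column names of the same 2 animals carry the opposite diets. The labels were followed, and results are also given without both animals, an alternative chosen after the data were seen. Nothing in the labels says whether libraries of a group came from separate litters or days, so p-values measure the spread between these libraries.

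Where the genes lie and what stands before them is shown first for the members on which the diet result turns. Positions are those of GRCm38, and 250 bases before to 50 bases after the start were taken from RefSeq on GRCm38.p6, where 29 of the 35 genes had an entry. Acot1 and Acot2 are neighbours on chromosome 12 with starts 21629 bases apart, and both rose on the high fat diet. Their promoter windows, chr12:84009252-84009551 and chr12:83987611-83987910 on the plus strand, are printed to show how little the 2 have in common.
Acot1: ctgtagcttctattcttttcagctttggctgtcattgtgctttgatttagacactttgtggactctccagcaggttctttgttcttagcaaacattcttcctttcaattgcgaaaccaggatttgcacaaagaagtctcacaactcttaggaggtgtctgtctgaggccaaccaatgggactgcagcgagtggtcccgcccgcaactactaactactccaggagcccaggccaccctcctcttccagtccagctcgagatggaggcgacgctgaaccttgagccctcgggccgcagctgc
Acot2: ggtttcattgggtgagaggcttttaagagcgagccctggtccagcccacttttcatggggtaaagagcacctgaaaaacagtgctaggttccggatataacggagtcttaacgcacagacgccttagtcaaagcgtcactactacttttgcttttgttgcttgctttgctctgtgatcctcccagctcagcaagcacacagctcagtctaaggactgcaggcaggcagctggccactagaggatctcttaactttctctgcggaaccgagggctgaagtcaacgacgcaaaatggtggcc
The longest run of bases common to both windows is 9 bases, and 74 of 300 aligned positions hold the same base without gaps. Nuclear receptors such as PPARα with RXR bind pairs of the half-site AGGTCA, whose complement on the opposite strand is read as TGACCT. The half-site was searched on both strands and is in capitals in the next windows, of Acadvl at chr11:70015379-70015678 on the minus strand and of Cpt1a at chr19:3323051-3323350 on the plus strand.
Acadvl: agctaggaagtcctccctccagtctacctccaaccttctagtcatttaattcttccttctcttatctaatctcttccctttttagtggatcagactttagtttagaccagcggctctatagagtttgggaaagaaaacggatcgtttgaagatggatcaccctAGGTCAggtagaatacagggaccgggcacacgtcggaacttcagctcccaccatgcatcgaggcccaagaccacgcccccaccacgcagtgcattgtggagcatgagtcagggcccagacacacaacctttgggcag
Cpt1a: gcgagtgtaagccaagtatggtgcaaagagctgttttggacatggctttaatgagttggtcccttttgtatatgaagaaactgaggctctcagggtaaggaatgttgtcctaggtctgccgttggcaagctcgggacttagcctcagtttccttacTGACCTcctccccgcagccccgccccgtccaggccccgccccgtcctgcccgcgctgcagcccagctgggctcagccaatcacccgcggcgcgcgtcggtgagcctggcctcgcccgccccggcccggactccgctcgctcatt
At least 1 half-site lay in the windows of 5 of 29 members (17.2%: Acadm, Plin2, Creb3l3, Acadvl and Cpt1a), against 18.1% of all 27025 genes with a window. It was found in 3 of 20 members that were called higher on the high fat diet and in 2 of 9 that were not. The full DR1 element, 2 such half-sites spaced by 1 base, was found in 0 members and in 0.048% of all genes, 13 in number. Only exact copies within these windows were searched, and with so small a share the 0 says nothing about the members. Hadha and Hadhb, which encode both subunits of the mitochondrial trifunctional protein, start 86 bases apart on opposite strands of chromosome 5 in the GENCODE annotation. RefSeq places the starts differently, and its windows for the 2 genes overlap by 228 bases. The window of Hadhb, chr5:30155003-30155302 on the plus strand, lies mostly between the 2 RefSeq starts.
Hadhb: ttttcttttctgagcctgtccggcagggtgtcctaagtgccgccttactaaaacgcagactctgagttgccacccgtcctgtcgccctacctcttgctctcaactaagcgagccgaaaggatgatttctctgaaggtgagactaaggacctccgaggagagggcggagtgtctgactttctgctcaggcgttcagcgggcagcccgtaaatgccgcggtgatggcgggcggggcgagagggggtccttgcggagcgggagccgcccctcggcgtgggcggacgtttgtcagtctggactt
The 6-base half-site is not among the letters of this window.

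The first comparison asked how the 35 genes differ between crypt cells of mice on a high fat diet and on chow. On the high fat diet 24 of 35 genes were higher at an adjusted p under 0.05 and 0 were lower. Of all 16421 genes tested, 4.35% were called higher and 5.0% lower. The median of the members' log2 differences was 0.74, a 1.68-fold higher level, against 0.05 over all genes, and 34 of 35 differences were above 0. All adjusted p-values of the sorted-cell comparisons come from limma on log2(normalized count + 1) with Benjamini-Hochberg adjustment over all genes tested. In 22 members every high fat diet library lay above every chow library, as it did in 8.81% of all genes. Cyp4a10 is among the 24 and the 22, and passed the filter on low values through the high fat diet group alone. These contrasts with all genes describe a set chosen with earlier results of these data known, and are no test of it.

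**Figure D1:**
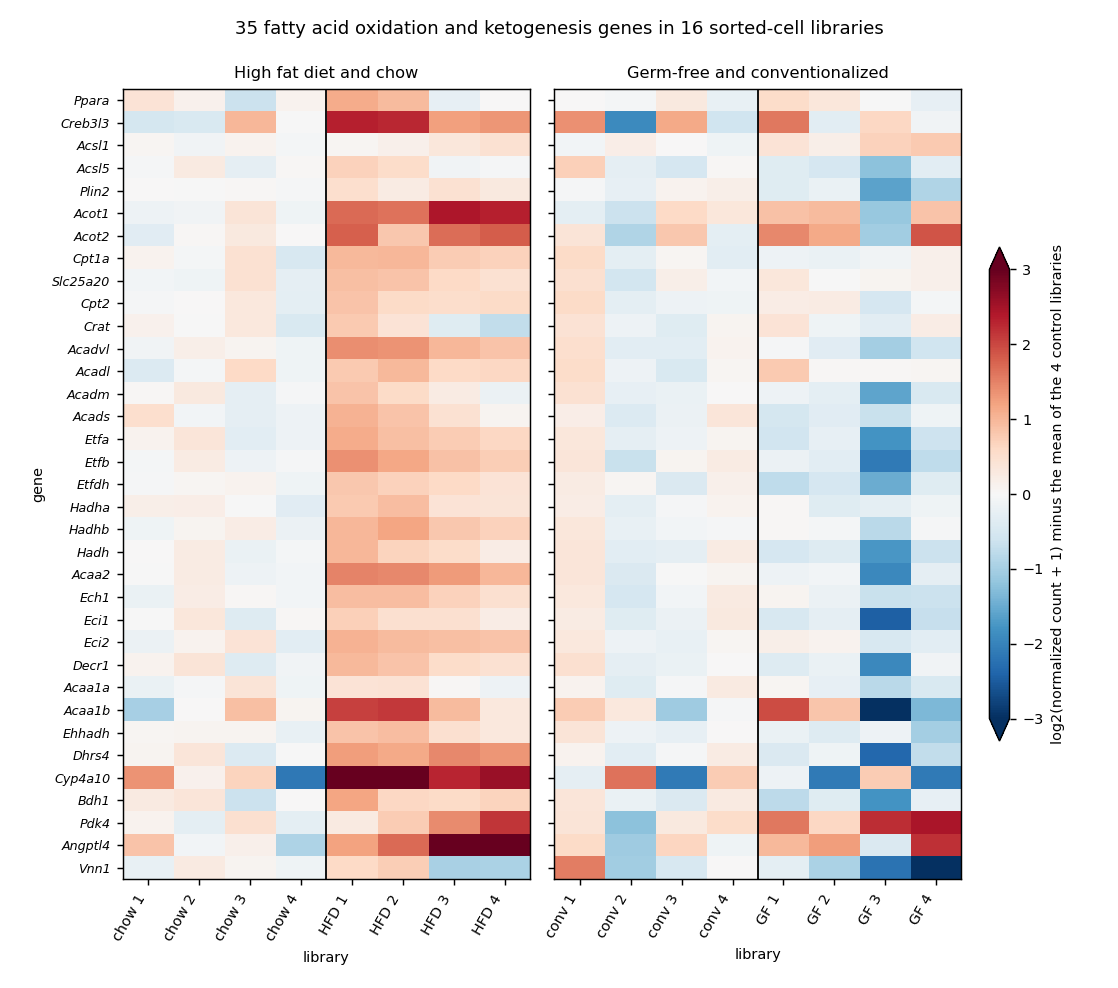
Heat map of the 35 genes (rows, in the order of their roles) in the 16 sorted-cell libraries (columns), coloured by log2(normalized count + 1) minus the mean of the 4 control libraries, chow on the left and conventionalized on the right. The high fat diet columns are red for most genes, with 24 of 35 called, and germ-free replicate 3 is the bluest column on the right.

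The acyl-CoA thioesterases, which free fatty acids from coenzyme A, had the largest folds among the mitochondrial and cytosolic enzymes of the module. Acot1, the cytosolic form, read 399, 414, 581 and 404 normalized counts in chow replicates 1 to 4 and 1438, 1385, 2381 and 2225 in high fat diet replicates 1 to 4. Its level was 4.06-fold higher (log2 difference 2.02 ± 0.15 SE, adjusted p = 0.00177), and Acot1 passed the threshold in all 18 alternatives tried. Acot2, the mitochondrial form, had 40.0, 52.0, 63.0 and 51.2 normalized counts on chow and 178, 90.2, 164 and 183.3 on the high fat diet. It was 2.87-fold higher (log2 difference 1.52 ± 0.26 SE, adjusted p = 0.0172). Neither gene's groups overlapped. Acot1 was highest in the BC24x animals on the high fat diet, and high fat diet replicate 2 was the lowest of its group in Acot2. Words of 31 bases shared with another gene make up 22.7% of the Acot1 transcripts and 37.3% of those of Acot2, mostly each other's, so reads could be divided between them.

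Among the carnitine shuttle genes, 3 of 4 rose. Chow libraries held 1909, 1704, 2451 and 1277 normalized counts of Cpt1a, the outer membrane carnitine palmitoyltransferase and gate of entry, and high fat diet libraries 3482, 3565, 3020 and 2871. This was 1.80-fold higher (log2 difference 0.85 ± 0.19 SE, adjusted p = 0.0316). Slc25a20, the carnitine-acylcarnitine carrier of the inner membrane, had 775, 757, 1133 and 683 normalized counts on chow and 1546, 1474, 1236 and 1133 on the high fat diet. The lowest high fat diet and the highest chow value, both in BC24x, read 1133 after rounding, and the former was not above the latter. The gene was 1.63-fold higher (log2 difference 0.70 ± 0.18 SE, adjusted p = 0.0444). Cpt2, which returns the acyl group to coenzyme A inside, had 2055, 2137, 2639 and 1723 normalized counts on chow and 3844, 3157, 3047 and 3142 on the high fat diet. Cpt2 was 1.55-fold higher (log2 difference 0.63 ± 0.15 SE, adjusted p = 0.0375), with no overlap. Crat, which handles short acyl groups, read 471 to 809 on chow and 387 to 1117 on the high fat diet. Its log2 difference was 0.02 ± 0.25 SE, with 0.53 within BC18x and -0.49 within BC24x.

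Of the 7 acyl-CoA dehydrogenases and electron transfer genes, 5 rose. Chow libraries held 2352, 2863, 2684 and 2341 normalized counts of Acadvl, the very long chain acyl-CoA dehydrogenase, and high fat diet libraries 6743, 6544, 5098 and 4605. The groups were well apart, and Acadvl was 2.22-fold higher (log2 difference 1.15 ± 0.14 SE, adjusted p = 0.0074). Acads, the short chain enzyme, had 692, 464, 409 and 441 normalized counts on chow and 1020, 895, 675 and 519.5 on the high fat diet. Chow replicate 1 lay above both high fat diet libraries of BC24x, and Acads was 1.53-fold higher (log2 difference 0.62 ± 0.17 SE, adjusted p = 0.0487). Acads was called in 2 of 18 alternatives, the fewest of the 24 genes. Acadl, the long chain enzyme, had a log2 difference of 0.74 ± 0.21 SE with an adjusted p of 0.0522, and Acadm, the medium chain enzyme, 0.38 ± 0.15 SE with 0.134.

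The electrons of these dehydrogenases pass through the flavoprotein ETF to the respiratory chain, and all 3 of its genes rose. Etfa, the alpha subunit, had 2775, 3352, 2065 and 2327 normalized counts on chow and 5552, 4811, 4384 and 3986 on the high fat diet. It was 1.80-fold higher (log2 difference 0.85 ± 0.12 SE, adjusted p = 0.0129). Chow libraries held 3489, 4294, 3223 and 3500 normalized counts of Etfb, the beta subunit, and high fat diet libraries 9350, 8107, 6592 and 6059. It was 2.06-fold higher (log2 difference 1.04 ± 0.13 SE, adjusted p = 0.0087). Etfdh, the ETF dehydrogenase of the inner membrane, had 1373, 1455, 1494 and 1273 normalized counts on chow and 2440, 2252, 2110 and 1865 on the high fat diet. It was 1.54-fold higher (log2 difference 0.63 ± 0.12 SE, adjusted p = 0.0209), and in none of the 3 did the groups overlap. Of the 31-base words of Etfb, 49.9% also lie in transcripts of other annotated genes, chiefly Gm45233, so its level is uncertain to that extent.

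Of the 8 genes of the later mitochondrial steps, 7 rose. Hadha, the alpha subunit of the trifunctional protein, had 2142, 2173, 1887 and 1500 normalized counts on chow and 3274, 3593, 2538 and 2482 on the high fat diet. It was 1.54-fold higher (log2 difference 0.62 ± 0.12 SE, adjusted p = 0.0208). Chow libraries held 2960, 3436, 3756 and 2877 normalized counts of Hadhb, the beta subunit, which shares its start region with Hadha as printed above, and high fat diet libraries 6492, 7348, 5666 and 5196. Hadhb was 1.89-fold higher (log2 difference 0.92 ± 0.14 SE, adjusted p = 0.0142), and both subunits were higher in every high fat diet library than in any on chow. Acaa2, the mitochondrial thiolase, had 4277, 5111, 3904 and 4109 normalized counts on chow and 12150, 11840, 10410 and 8697 on the high fat diet. It was 2.47-fold higher (log2 difference 1.30 ± 0.12 SE, adjusted p = 0.00549). Hadh, the medium and short chain hydroxyacyl-CoA dehydrogenase, had 4354, 5091, 3721 and 4163 normalized counts on chow and 8633, 6890, 6340 and 5034 on the high fat diet. High fat diet replicate 4 lay just under chow replicate 2, and Hadh was 1.53-fold higher (log2 difference 0.62 ± 0.14 SE, adjusted p = 0.0336).

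The remaining genes of this stage handle double bonds. Chow libraries held 4197, 5561, 4938 and 4536 normalized counts of Ech1, a dienoyl-CoA isomerase, and high fat diet libraries 9155, 9099, 7687 and 6678. It was 1.69-fold higher (log2 difference 0.76 ± 0.14 SE, adjusted p = 0.0208). Eci2, an enoyl-CoA isomerase, had 1003, 1228, 1508 and 909.8 normalized counts on chow and 2339, 2199, 2137 and 2073 on the high fat diet. It was 1.92-fold higher (log2 difference 0.94 ± 0.17 SE, adjusted p = 0.0176). Decr1, the dienoyl-CoA reductase, had 1214, 1466, 855 and 1052 normalized counts on chow and 2217, 2025, 1635 and 1533 on the high fat diet. It was 1.63-fold higher (log2 difference 0.70 ± 0.12 SE, adjusted p = 0.0176), and the groups of all 3 genes were apart. Eci1, a second enoyl-CoA isomerase, had a log2 difference of 0.47 ± 0.15 SE with an adjusted p of 0.0662.

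Among the 5 peroxisomal and omega oxidation genes, 3 rose. Chow libraries held 10.4, 3.88, 6.10 and 0 normalized counts of Cyp4a10, a fatty acid omega hydroxylase and a well known PPARα target, and high fat diet libraries 186, 249, 20.8 and 25.6. It showed the highest fold of all 35 genes and was 16.2-fold higher (log2 difference 4.02 ± 0.67 SE, adjusted p = 0.0158) on the log2(value + 1) scale, with chow levels near 0. The log2 difference was 3.07 with a pseudocount of 5, 4.82 without both animals whose diets conflict and 4.75 without chow replicate 3. The gene passed the filter on low values through the high fat diet group alone. On the high fat diet the BC18x animals stood far above those of BC24x, with log2 differences of 4.86 and 3.18 within the series. Its transcripts share 44.9% of their 31-base words with other genes, 36.5% with Cyp4a32. Dhrs4, a peroxisomal carbonyl reductase, had 3874, 4708, 2755 and 3653 normalized counts on chow and 8756, 8088, 10020 and 9183 on the high fat diet. It was 2.44-fold higher (log2 difference 1.29 ± 0.17 SE, adjusted p = 0.00978). Ehhadh, the peroxisomal bifunctional enzyme, had 537, 549, 550.3 and 442 normalized counts on chow and 937, 979, 721 and 646 on the high fat diet. It was 1.56-fold higher (log2 difference 0.64 ± 0.13 SE, adjusted p = 0.0284), and neither gene's groups overlapped. Acaa1a and Acaa1b, the peroxisomal thiolases, had log2 differences of 0.18 ± 0.18 SE and 1.36 ± 0.50 SE with adjusted p of 0.549 and 0.107. Acaa1b read 175 and 185 in the high fat diet libraries of BC18x and 81.4 and 52.2 in those of BC24x, where chow read 78.6 and 44.3. In all, 9 members share at least 10% of such words with another gene, Etfa (10.8%), Eci2 (13.6%), Acaa1a (18.1%), Hadhb (23.3%) and Acaa1b (40.0%) among them, so their levels are uncertain to that extent.

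The ketone body gene also rose. Chow libraries held 2043, 2173, 1077 and 1685 normalized counts of Bdh1, which interconverts acetoacetate and 3-hydroxybutyrate, and high fat diet libraries 3835, 2608, 2509 and 2678. It was 1.70-fold higher (log2 difference 0.76 ± 0.18 SE, adjusted p = 0.0369), without overlap.

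Of the 2 transcription factors, Creb3l3 rose. Creb3l3, a membrane-bound factor of lipid and ketone metabolism, had 181.5, 193, 525 and 263 normalized counts on chow and 1334, 1267, 616 and 667 on the high fat diet. It was 3.45-fold higher (log2 difference 1.79 ± 0.38 SE, adjusted p = 0.0294). Chow replicate 3 was the highest chow library, and the log2 difference was 2.79 within BC18x and 0.79 within BC24x. Ppara, the fatty acid receptor itself, read 96.5 to 203 on chow and 128 to 329 on the high fat diet, a log2 difference of 0.46 ± 0.22 SE with an adjusted p of 0.202.

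Angptl4, a secreted inhibitor of lipoprotein lipase, had 335, 176, 208 and 97.2 normalized counts on chow and 432, 608, 1491 and 2183 on the high fat diet. Angptl4 was 5.15-fold higher (log2 difference 2.37 ± 0.51 SE, adjusted p = 0.0298), with a log2 difference of 1.08 within BC18x and 3.65 within BC24x. Chow libraries held 285, 217, 369.7 and 218 normalized counts of Pdk4, the kinase that turns off pyruvate dehydrogenase, and high fat diet libraries 322, 448, 710 and 1182. High fat diet replicate 1 lay below chow replicate 3, and Pdk4 was 2.22-fold higher (log2 difference 1.15 ± 0.29 SE, adjusted p = 0.0428). Vnn1, a surface pantetheinase, did not pass the test, with a log2 difference of -0.15 ± 0.31 SE. Its high fat diet values were 240.7 and 264 in BC18x and 81.0 and 81.3 in BC24x, above and below those on chow, which ran from 137 to 191.

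The 3 genes of activation and storage did not pass the test. Acsl1 and Acsl5, acyl-CoA synthetases, had log2 differences of 0.25 ± 0.12 SE and 0.28 ± 0.15 SE with adjusted p of 0.197 and 0.23. Plin2, a lipid droplet coat protein, read 2256 to 2393 on chow and 2762 to 3302 on the high fat diet. The groups of Plin2 did not overlap, but its log2 difference of 0.38 ± 0.11 SE had an adjusted p of 0.0604.

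**Figure D2:**
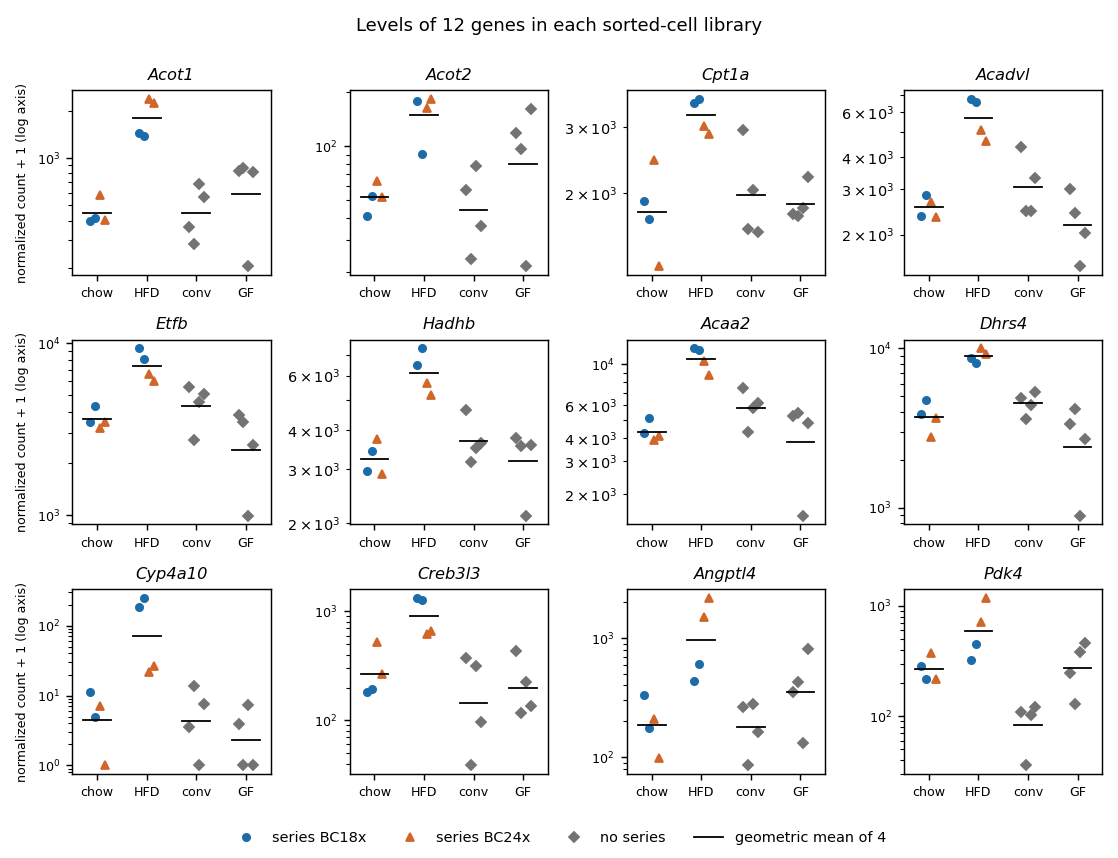
Normalized counts plus 1 of 12 genes on log axes in each library of the 4 groups, with the series of the diet animals as circles and triangles and a bar at the geometric mean of 4 libraries. Acot1, Acadvl and Acaa2 are higher in all 4 high fat diet libraries than in any on chow, Cyp4a10 and Creb3l3 are highest in BC18x, and Angptl4 is highest in BC24x.

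The diet difference was also described within each animal series. Within BC18x, 2 animals against 2, both high fat diet libraries lay above both chow libraries in 34 of 35 members, against 27.3% of all genes. Within BC24x the same held for 27 of 35, against 33.2% of all genes. The members' median log2 difference was 0.76 in BC18x and 0.58 in BC24x, where the medians of all genes were 0.05 and -0.002. Fitted within one series, limma called 12 members higher in BC18x (0.802% of all genes) and 4 in BC24x (0.351%), the latter being Acot1, Acaa2, Dhrs4 and Angptl4.

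A test of the difference between series called 0 members and 0% of 16421 genes, and 7 members and 1970 genes had an unadjusted p under 0.05. Of these 7, Creb3l3 (-2.00), Acaa1b (-2.43), Vnn1 (-1.57), Crat (-1.02) and Acaa1a (-0.72) had the smaller log2 difference in BC24x, while Angptl4 (2.58) and Dhrs4 (0.62) had the larger one there. Without chow replicate 4, Creb3l3 alone among the members was called in this test. The direction of the 24 calls was positive in every alternative, but their number was not steady. It was 14 without both animals whose diets conflict (0.378% of all genes called higher), 20 without chow replicate 3, and 6 without chow replicate 1 or without high fat diet replicate 1. In the last 2 cases the genes called in all, in either direction, fell from 1535 to 101 and 170. It was 8 without high fat diet replicate 3, 7 without high fat diet replicate 4 and 8 when series was not a term of the fit, where 215, 154 and 135 genes were called in all.

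**Figure D3:**
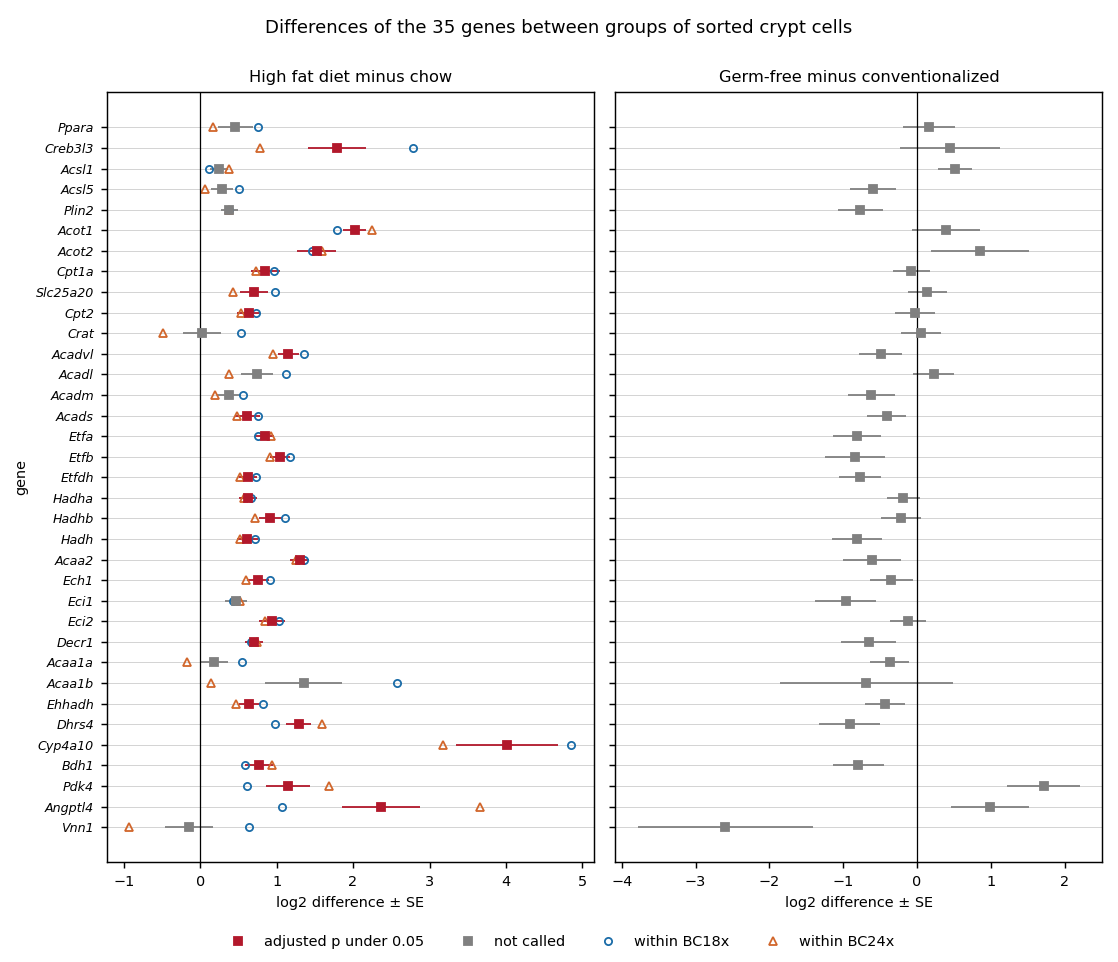
Log2 differences ± SE of the 35 genes for high fat diet minus chow (left, red where the adjusted p was under 0.05, with the differences within BC18x as circles and within BC24x as triangles) and for germ-free minus conventionalized (right). Differences lie to the right of 0 for 34 genes on the left, and 24 of 34 lie to the left of 0 on the right.

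Markers of other cells moved with the diet. Of 12 enteroendocrine markers 9 were called lower on the high fat diet and 0 higher. Their summed level was 358780 to 1191700 on chow and 95704 to 263100 on the high fat diet. All 10 tuft markers were lower, with sums of 14336 to 32273 and 1595 to 8621. Of 12 cycling markers 3 were called higher (sums of 22475 to 59087 and 53779 to 70618), and of 15 enterocyte markers 2 were higher. The enterocyte sums were 29110 and 37487 on chow against 79036 and 76973 on the high fat diet in BC18x. In BC24x they were 38138 and 30268 against 31496 and 31271. Of 10 stem markers 1 was called higher. The stem sums were 118360 and 102730 on chow against 68080 and 78742 on the high fat diet in BC18x. In BC24x the stem sums were 62846 and 92607 against 151990 and 115530. Of 8 Paneth and 8 goblet markers 0 were called, with Paneth sums of 68681 to 741060 on chow and 263370 to 866030 on the high fat diet. In these bulk samples, fewer cells of a type and less RNA per cell cannot be told apart, and the part of cell makeup in the members' differences was not tested.

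Neighbouring pathways were described from 8 lists of other genes. Among other ketone body genes, the thiolase Acat1 was 1.91-fold and the monocarboxylate carrier Slc16a1 1.77-fold higher (adjusted p = 0.0151 and 0.0248). Of 18 other fatty acid entry genes 3 rose: the fatty acid binding proteins Fabp1 (6.77-fold) and Fabp2 (2.62-fold) and the peroxisomal thioesterase Acot8 (1.45-fold). The median of that list was 0.07, near that of all genes.

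Of 18 tested peroxisomal and omega oxidation genes outside the module 4 rose and 1 fell. Hsd17b4, the second peroxisomal bifunctional enzyme, was 1.80-fold, the peroxisome proliferation factor Pex11a 1.72-fold, catalase (Cat) 1.42-fold and the racemase Amacr 1.41-fold higher. Cyp4b1 had a log2 difference of -1.86 ± 0.35 SE. Of 17 other mitochondrial acyl-CoA genes only Acad8 rose (1.33-fold). Among 13 tested lipid droplet genes, G0s2, an inhibitor of adipose triglyceride lipase, rose 4.94-fold and Cidea fell by 1.09 on the log2 scale.

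Of 19 tested fat-sensing regulators 3 rose: Hnf4g (1.98-fold), Rxra, the partner receptor of PPARα (1.74-fold), and the coactivator Ppargc1b (1.65-fold). In fatty acid synthesis, of 15 tested genes Srebf1 was 1.51-fold higher, while Acly and Scd2 fell by 0.58 and 1.08 on the log2 scale. Of 29 citric acid cycle and respiratory chain genes 17 rose and 0 fell, with a median log2 difference of 0.59. The 6 with the smallest adjusted p were Cycs (1.61-fold), Suclg2 (1.66-fold), Cox5a (1.92-fold), Suclg1 (1.62-fold), Sdhb (1.61-fold) and Ndufv1 (1.61-fold). These counts stand beside 4.35% of all genes called higher and 5.0% called lower, and the lists were chosen with earlier results of these data known.

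The second comparison set germ-free against conventionalized mice. Of 34 members tested, 0 were called, against 2.24% of 20214 genes in either direction, and Cyp4a10 fell below the filter on low values with 0 to 12.6 normalized counts in the 8 libraries. The members' median log2 difference was -0.39, with 24 below 0 and 10 above, where the median of all genes was 0.11. At an unadjusted p under 0.05 there were 10 members and 4072 of all genes. Of these 10, Acsl1 and Pdk4 had differences above 0 and Plin2, Etfa, Etfdh, Hadh, Eci1, Dhrs4, Bdh1 and Vnn1 below 0.

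The smallest adjusted p belonged to Pdk4. It read 247, 127, 385 and 457 in germ-free and 108, 34.7, 101 and 121 in conventionalized libraries, so the groups did not overlap. Its log2 difference of 1.71 ± 0.50 SE had an adjusted p of 0.0998, which became 0.0399 without germ-free replicate 2. Vnn1 had the largest difference below 0, -2.60 ± 1.19 SE, with an adjusted p of 0.245. The difference was -1.16 without germ-free replicate 4, in which the gene was at 0, and -3.37 without germ-free replicate 1. It read 97.7, 61.7, 25.04 and 0 in germ-free and 349.5, 57.7, 85.98 and 121 in conventionalized libraries, which overlap.

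Germ-free replicate 3 was the lowest germ-free library in most members. Without it the members' median was -0.20, with 12 above 0 and 22 below. Enteroendocrine markers moved here too, with 3 of 12 called higher and sums of 525540 to 1160200 in germ-free and 117390 to 296770 in conventionalized libraries. Of 12 cycling markers 3 were called lower, with sums of 6234 to 34998 and 46031 to 63579. Stem markers summed to 13785 to 73780 and 64517 to 132720 (median log2 difference -1.32), and stromal or endothelial markers to 289 to 715 and 33.0 to 275, with 1 of 5 tested called higher. The part of these cells in the members' differences was not tested. Of the list genes Cyp4b1 (log2 difference 2.10 ± 0.30 SE, adjusted p = 0.0129), Mgll (2.17 ± 0.40 SE, adjusted p = 0.0182) and Acot12 (1.77 ± 0.40 SE, adjusted p = 0.0413) were called, all higher in germ-free mice. All 29 citric acid cycle and respiratory chain genes had differences below 0 and 0 were called, with a median of -0.80.

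The third comparison used single cells to ask in which cells the 35 genes are expressed. Cells were clustered without the members and the list genes and named from marker genes, and stem-like and cycling-like clusters together are called crypt-like. Enterocyte-like cells numbered 435 and 721 in wild type and 388 and 974 in knockout, and crypt-like cells 398, 391, 414 and 443. The genotypes' enterocyte-like cells were spread unevenly over clusters in both sets. In set 1, 165 of the 388 knockout cells lay in 1 cluster that held 1 wild-type cell, led by Arg2, Lgals3 and Ces1f and with 0 enterocyte markers among its 10 leading genes. In set 2, 297 of the 974 knockout cells and 92 of the 721 wild-type cells lay in 1 cluster led by Apoa4, Apoa1 and Rbp2. A further set 2 cluster of 480 cells, led by Dmbt1, also had 0 enterocyte markers among its 10 leading genes. Crypt-like cells of set 1 were uneven too. A stem-like cluster held 34 wild-type and 150 knockout cells, and a cycling-like cluster 98 and 16. The latter had 7 enterocyte markers at least 2-fold above the median of the clusters, with Sis among its 10 leading genes. What this unevenness adds to the comparisons of class and genotype was not tested. The median mitochondrial share was 7.67% to 13.8% in enterocyte-like and 5.66% to 10.3% in crypt-like cells.

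Most of the 35 genes were higher in enterocyte-like than in crypt-like cells. Summed over the 35 genes, enterocyte-like cells held 5185, 4429, 4089 and 5502 CPM (UMIs scaled to the same total in each class and sample) in wild type of sets 1 and 2 and knockout of sets 1 and 2. Crypt-like cells held 2593, 2748, 2237 and 3059. The ratio is a description with no test, as all genes of a cell share its library. In 31 of 35 members the enterocyte-like level was above the crypt-like level in all 4 samples, against 27.9% of 11885 genes, and in 3 it was below, against 50.5%. The ratio was at least 2-fold in all 4 samples for 10 members and at least 2-fold the other way for 0, against 7.88% and 14.0% of all genes. Genes counted here had a mean of at least 10 UMIs a sample over both classes. Cyp4a10, among both the 31 and the 10, and Pdk4, among the 31, passed this filter only through their enterocyte-like counts. The crypt-like counts of these genes would not have reached it.

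**Figure D4:**
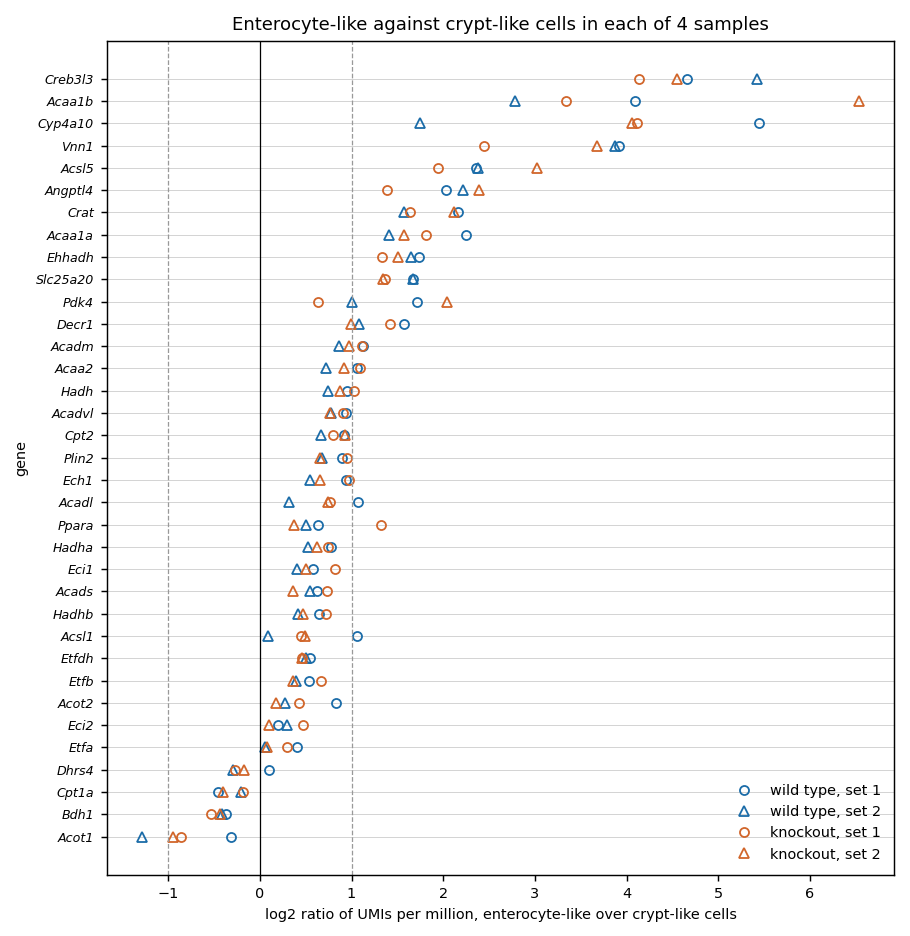
Log2 ratio of CPM in enterocyte-like over crypt-like cells for each of the 35 genes in 4 samples (circles set 1, triangles set 2, blue wild type, orange knockout), with dashed lines at 2-fold. In all 4 samples 10 genes lie beyond the right dashed line, and Cpt1a, Bdh1 and Acot1 lie left of 0.

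The steepest was Creb3l3, which held 248, 131, 148 and 232 CPM in enterocyte-like and 9.80, 3.07, 8.42 and 9.93 in crypt-like cells. Its ratio was 17.6- to 42.8-fold. In T lymphocyte-like cells, which should lack it, Creb3l3 held 4.49 to 18.6 CPM, about the crypt-like level. Vnn1 was 5.46- to 15.1-fold, Acsl5 3.84- to 8.12-fold, Angptl4 2.61- to 5.23-fold and Crat 2.98- to 4.48-fold higher in enterocyte-like cells. Acaa1a, Ehhadh and Slc25a20 were 2.65- to 4.75-fold, 2.52- to 3.33-fold and 2.53- to 3.18-fold higher.

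For 2 further genes some crypt-like counts were at or under 3 UMIs, and there that floor was used, which makes those ratios lower bounds. This touched 1 sample for Acaa1b and 3 for Cyp4a10. Acaa1b held 67.8, 20.6, 32.7 and 27.8 CPM in enterocyte-like cells and 3.98, 2.98, 3.23 and 0.10 in crypt-like cells, the last being 1 UMI. Cyp4a10 held 18.6, 0.86, 7.29 and 8.36 in enterocyte-like cells and at most 5 UMIs in the crypt-like cells of any sample. The smallest ratio was 6.91-fold for Acaa1b, a measured ratio in wild type of set 2, and at least 3.35-fold for Cyp4a10. The enzymes of the mitochondrial spiral differed less. Acadvl was 1.70- to 1.92-fold, Hadha 1.44- to 1.71-fold and Etfa 1.04- to 1.32-fold higher in enterocyte-like cells.

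The 3 remaining genes with one direction in all 4 samples were higher in crypt-like cells. Acot1 held 36.8, 10.4, 37.4 and 26.0 CPM in crypt-like and 29.6, 4.29, 20.6 and 13.5 in enterocyte-like cells, 1.24- to 2.43-fold higher in the crypt-like cells. Bdh1 was 1.30- to 1.45-fold and Cpt1a 1.14- to 1.38-fold higher there, and Dhrs4 was higher there in 3 of 4 samples. Acot1, Cpt1a, Bdh1 and Dhrs4 are among the 24 genes that rose on the high fat diet in sorted crypt cells, as are 68.6% of all 35 members. A link between the 2 results was not tested.

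The 12 members with the most UMIs in enterocyte-like cells, in the order wild type set 1, wild type set 2, knockout set 1 and knockout set 2, had these levels in CPM. Hadh held 529.9, 596, 467 and 714, and the synthetase Acsl5 held 555, 447, 364 and 729. Ech1 held 277, 292, 245 and 351, and Acaa2 held 265, 239, 219.97 and 394. The genotypes' values overlapped in each of these 4 genes. Etfb held 397, 234, 342 and 253, with set 1 above set 2 in both genotypes, and Etfa held 223, 199, 179 and 209. Hadha held 239.7, 262, 177 and 286, and Hadhb 179, 178, 154 and 192. The knockout value was the lowest in set 1 and the highest in set 2 for Hadha and Hadhb. Eci1 held 166, 209.6, 181.6 and 218, Acadm 156, 196, 135 and 214, and Acadvl 201, 159, 146 and 180.04. Creb3l3, given above, was the remaining gene.

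Enteroendocrine-like and tuft-like cells showed a mixed pattern. Enteroendocrine-like cells were below crypt-like cells in all 4 samples for 12 of 34 members with enough UMIs (17.4% of all genes) and above for 8 (45.3% of all genes). The floor of 3 UMIs was used on both sides, and in small classes it can place a gene with few UMIs above crypt-like cells. Of the 8, Angptl4 and Vnn1 were at or under that floor in all 4 enteroendocrine-like samples, and Pdk4 and Acaa1b in some. The share of all genes above carries the same limit. Tuft-like cells were below for 10 of 33 members (18.6%) and above for 8 (40.6%), with the same limit. Of these 8, Vnn1 was at or under the floor in all 4 tuft-like samples, and Acaa1b in both samples of set 2. Bdh1 held 76.3, 30.6, 88.3 and 29.6 CPM in enteroendocrine-like cells and 56.7, 40.8, 73.4 and 38.3 in tuft-like cells, against 101, 107, 112 and 103 in crypt-like cells. Slc25a20 was 2.43- to 5.10-fold higher in tuft-like than in crypt-like cells, and Ech1 1.73- to 2.03-fold. These classes held 26 to 45 and 21 to 46 cells a sample, so single counts were small. Goblet-like cells were below crypt-like cells in all 4 samples for 29 of 34 members (5717 of 11758 genes) and above for 2 (2305 genes). Paneth-like cells were below for 32 of 33 members (10261 of 11313 genes) and above for 0 (358 genes).

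The last comparison set the miR-375 knockout against wild type with edgeR on UMIs summed per sample. In enterocyte-like cells 0 of 35 members were called, as were 0% of 10985 genes. In crypt-like cells 0 of 34 members were called, as were 0% of 11003 genes. At an unadjusted p under 0.05 there were 0 members in either class and 95 and 94 of all genes. DESeq2 called 0 members and 4 and 5 of all genes. With set as a block, edgeR called 0 members and 0 and 5 of all genes. In that fit the unadjusted edgeR p of Angptl4 was 0.0146 in enterocyte-like and 0.00404 in crypt-like cells. The members' median log2 difference was -0.03 in enterocyte-like cells, with 16 above 0 and 19 below, and -0.05 in crypt-like cells, with 14 above and 20 below. With 2 samples a genotype, these medians and counts do not show that the genotypes are alike.

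Angptl4 had the smallest p in both classes. It held 11.1 and 4.74 CPM in wild-type and 17.9 and 14.7 in knockout enterocyte-like cells, and both knockout samples were above both wild-type samples. The log2 difference was 1.04 ± 0.48 SE (edgeR adjusted p = 1). In crypt-like cells it held 2.70 and 1.02 in wild type and 6.87 and 2.81 in knockout, a log2 difference of 1.41 ± 0.73 SE (edgeR adjusted p = 1). These crypt-like levels rest on 19, 12, 49 and 28 UMIs. Pdk4 differed by 1.14 ± 0.79 SE and 1.03 ± 0.67 SE in the 2 classes, on 11 to 110 and 5 to 13 UMIs a sample. In enterocyte-like cells the log2 differences were 0.06 ± 0.33 SE for Hadh, -0.13 ± 0.32 SE for Hadha and -0.16 ± 0.26 SE for Cpt1a.

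**Figure D5:**
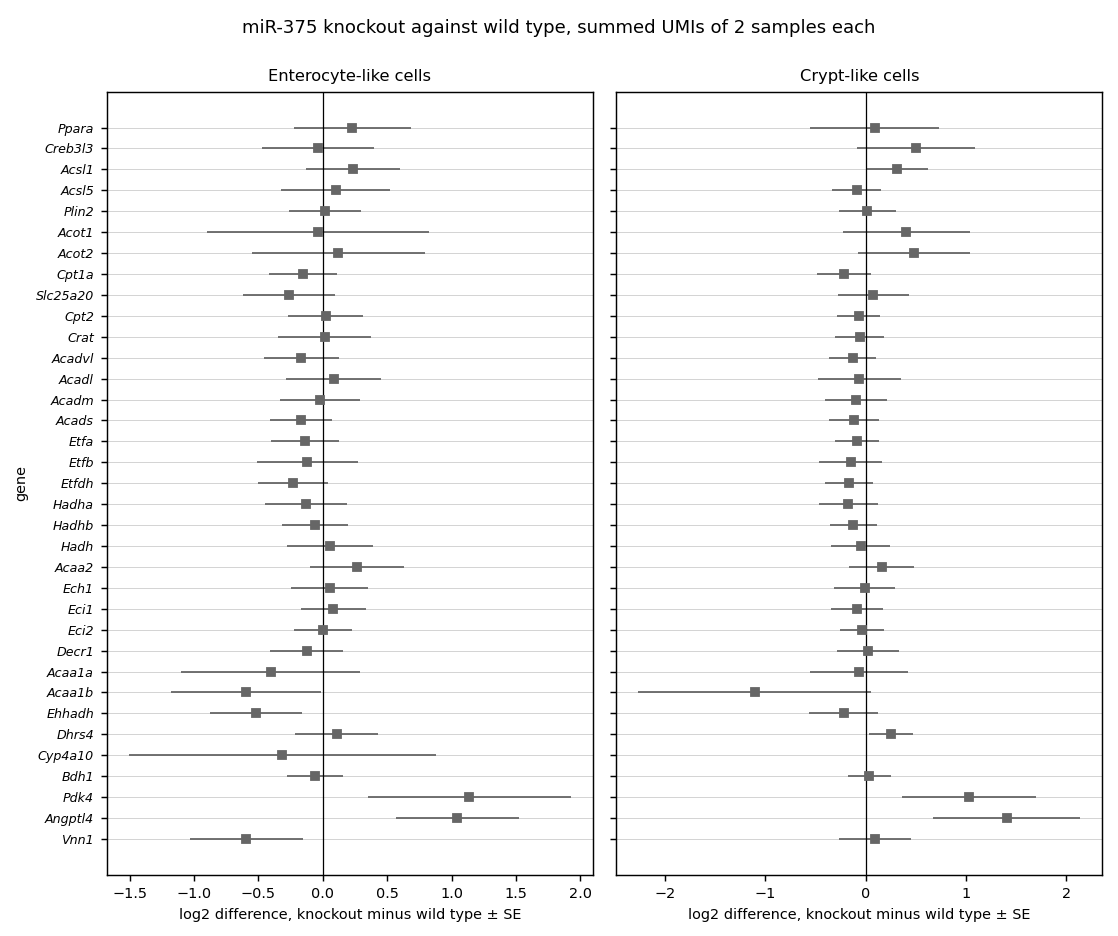
Log2 differences ± SE of the 35 genes between miR-375 knockout and wild type from edgeR, in enterocyte-like cells (left) and crypt-like cells (right, where Cyp4a10 was not tested). Most points lie within 1 SE of 0, with Angptl4 and Pdk4 farthest to the right in both panels.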

How the data were processed

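Per the submitters' processing notes, the authors used mm10, Cell Ranger, STAR, Salmon and DESeq2. Which tool served which file is not given there. The sorted-cell table holds gene signal as normalized counts, deposited by the authors, with totals of 10688863 to 19124357 per library. Entries without a name (0.034% to 0.080% of the total) were left out, and 0 columns of samples went unused. The single-cell matrices hold UMI counts as deposited by the authors.

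The normalized counts were tested on log2(value + 1) in limma 3.58.1 (R 4.3.3), with genes at a mean of at least 10 over the 8 libraries compared, animal series as a term for diet, and Benjamini-Hochberg adjustment over all genes at 0.05. A barcode was kept at 500 or more genes and 1000 or more UMIs, if mitochondrial UMIs were below 25%. Scrublet marked 2, 12, 4 and 26 of them, too few to be of use, so barcodes were removed by doublet score, 0.8% per 1000 barcodes. Cells were clustered in scanpy 1.11.5, within each set (2000 variable genes, 30 components, 15 neighbours, resolution 1), without the members and list genes, and named from markers. UMIs were summed per sample and class and tested with edgeR 4.0.16, with DESeq2 1.42.0 as an alternative. Each test script was tested on simulated data with known changes.

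Members called in the diet test are given in full, others by range or difference, list genes where called (1 of them is not reported here), and the 12 members with the most UMIs in enterocyte-like cells by sample. Of the citric acid cycle and respiratory chain genes called, the 6 with the smallest adjusted p are named. The members and lists were chosen with earlier results of these data known. Alternatives were other pseudocounts, filters, scalings, blocks, series and left-out libraries. Counting error sets the precision of low UMI counts.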

Additional observations from a re-analysis of the deposited data

Results flagged for a closer look

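Of 137 groups of 4 libraries examined (35 genes in 4 groups, where the values allowed it), 9 held a library far from the other 3, and chance sets apart about 1 group in 20. On chow, Acot1 read 581.3 in replicate 3, above 413.6 in the next library, and Ehhadh read 441.5 in replicate 4, below 536.7. On the high fat diet, replicate 1 stood above the rest with 3844 for Cpt2 and 3835 for Bdh1, where the next libraries read 3157 and 2678. Germ-free replicate 3 stood below the rest with 203.5 for Acot1, 2114 for Hadhb and 1529 for Acaa2, where the next libraries read 813.7, 3548 and 4847. Germ-free replicate 1 stood above the rest with 1951 for Acadl, against 1173. Conventionalized replicate 1 read 3056 for Cpt2, against 1872.

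Between genotypes, Eci1 was higher in the knockout in both sets in enterocyte-like cells (log2 difference 0.083) and lower in both sets in crypt-like cells (-0.085). This difference between cell classes was not tested.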

How the results depend on the processing

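The number of members called higher on the high fat diet stayed between 23 and 26 with another pseudocount, filter or scaling. It was 6 with all 4 groups sharing the spread, 8 without the animal series, 12 within BC18x, 4 within BC24x and 14 without both animals whose diets conflict, the last chosen after the data were seen. In these settings 293, 135, 208, 251 and 162 genes were called in all, against 1535. Leaving out 1 library gave 6 to 22 members, with 101 to 2268 genes. The replicate block gave 9 members for diet and 1 in germ-free mice (Pdk4, limma adjusted p = 0.033), but same-numbered libraries did not deviate together (correlations of 0.044 to 0.219 for diet and -0.128 to 0.39965 for germ-free), so the numbers do not pair the libraries. In germ-free mice 2 members were called when all 4 groups shared the spread (Pdk4 and Etfdh), and 0 to 1 when 1 library was left out. The difference between animal series gave 0 to 1 when 1 library was left out. The replicate block, taken by set, left 0 members called between genotypes, as did every other alternative. At least 2-fold between enterocyte-like and crypt-like cells were 9 to 11 members.

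Of 770 values under alternatives (35 members for diet and the 10 at an unadjusted p under 0.05 for germ-free), 563 kept their direction and side of the threshold, 12 gained a call, 12 changed sign and the rest lost the call. These changes of sign were diet values of 3 members without a call. Among the other germ-free values, Acaa1b (0.49) and Cpt2 (0.13) had a difference above 0 without germ-free replicate 3. Vnn1 ranged from -0.40 to 0.052 with 1 library left out, was 0.64 within BC18x, 0.15 without both animals in conflict, and 0.0083 to 0.052 without chow replicate 3 or high fat diet replicate 3 (0.010) or 4. Crat ranged up to 0.28 with 1 library left out, was -0.49 within BC24x and -0.16 to -0.0021 without 1 of 5 libraries (-0.16, -0.11, -0.054, -0.032 and -0.0021). Acaa1a was -0.18 within BC24x. The cause was not tested. Few counts in crypt-like cells limit Cyp4a10, Pdk4, Acaa1b and Angptl4.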
